A study of Mus musculus with 8 samples.

Results

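The insulin-like growth factor (IGF) genes described here were the ligands Igf1 and Igf2, the growth hormone receptor gene Ghr, the complex partner Igfals, and the binding protein genes Igfbp1, Igfbp2, Igfbp3, Igfbp4, Igfbp5 and Igfbp7. They were chosen by symbol, as the array probes annotated with that symbol alone, and all 10 were found, with 21 probes among 41174 tested. The table holds 19532 named genes in all. The samples were livers of 4 mice with the mPer2Brdm1 mutation of the clock gene Per2 and of 4 wild-type mice, whose RNA was hybridised to 1-colour Agilent arrays, 1 per mouse. All 8 mice had a mixed background of 129sv and C57Bl/6, came from a single cohort and were killed after 8 h of starvation, and their age and sex are not given in the sources used here. The mutation is a germline allele carried in every tissue, so the liver was not the only mutant organ.

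In the adult animal the liver is the main source of circulating IGF-1, which it makes when growth hormone from the pituitary binds its receptor. In the blood most IGF is held by binding proteins, above all in a complex with IGFBP-3 and the acid-labile subunit encoded by Igfals. IGFBP-1 is made by hepatocytes, is repressed by insulin and rises on fasting. Insulin, growth hormone and feeding therefore all reach this set of genes in the liver.

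The values are log2 differences of each probe from its own median over the 8 arrays, so they compare mice and give no expression level. A check of the tissue by absolute marker levels was therefore not possible. The log base is not stated and was read as 2 from how far the values reach, higher was taken as brighter, and the fold changes depend on this. Each array was shifted to a common 75th percentile, by -0.09 to -0.01 on mutant and 0.05 to 0.07 on wild-type arrays. Against the values as deposited, this shift lowered every mutant minus wild-type difference by the same amount. Differences are mutant minus wild type with the standard error of a limma fit over all 28042 rows, and a gene passed where its p, adjusted by the Benjamini-Hochberg method, was under 0.05. Values of single mice are listed in the order of replicates 1 to 4. The mean of the control features was low in wild-type replicates 2 and 3, at -0.57 and -0.28 against -0.01 to 0.21 on the other 6 arrays. Wild-type replicate 1 lay apart on the second principal component, at -120.1 against 0.39 to 41.9, and its correlations with the other wild-type arrays were -0.01 to 0.08. Nothing in the labels gives a batch, and with 8 arrays precision is limited by their number.

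The promoters of 3 members are shown because Igfbp1 and Igfbp5 had the largest rise and the largest fall of the set, and because Igfbp2 lies beside Igfbp5 and moved the other way. They run 5′ to 3′ on the strand of the gene, over the 300 bases around the gene start in RefSeq (GRCm38.p6), and capitals mark the motifs found.
Igfbp1, chr11:7197537-7197836, plus strand: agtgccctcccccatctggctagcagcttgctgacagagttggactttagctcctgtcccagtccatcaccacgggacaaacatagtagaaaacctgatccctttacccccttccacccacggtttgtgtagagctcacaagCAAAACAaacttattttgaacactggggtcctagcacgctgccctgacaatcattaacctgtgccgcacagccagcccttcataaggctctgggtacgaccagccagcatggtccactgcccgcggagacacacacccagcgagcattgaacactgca
Igfbp2, chr1:72824230-72824529, plus strand: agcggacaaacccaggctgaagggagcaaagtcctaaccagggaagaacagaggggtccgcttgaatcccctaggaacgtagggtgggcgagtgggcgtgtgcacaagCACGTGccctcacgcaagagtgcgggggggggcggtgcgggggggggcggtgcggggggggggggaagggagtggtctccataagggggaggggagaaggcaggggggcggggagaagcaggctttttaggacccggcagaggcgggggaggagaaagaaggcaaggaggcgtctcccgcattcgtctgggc
Igfbp5, chr1:72874816-72875115, minus strand: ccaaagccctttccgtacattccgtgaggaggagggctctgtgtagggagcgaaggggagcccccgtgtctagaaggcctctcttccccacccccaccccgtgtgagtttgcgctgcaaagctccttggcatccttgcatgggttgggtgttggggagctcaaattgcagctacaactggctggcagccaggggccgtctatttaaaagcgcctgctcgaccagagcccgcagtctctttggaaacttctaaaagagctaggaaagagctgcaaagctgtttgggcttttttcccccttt
The motifs were searched on both strands in all 17 RefSeq start windows of the 10 members. They were the E-box CACGTG, through which the clock activators bind, the D-box core TTANNTAA, the forkhead motif GTAAACA, the insulin response element core CAAAACA and the STAT motif TTCNNNGAA. The capitals in Igfbp1 are the insulin response element core, at -108 to -102 from the start, in the region through which forkhead factors are known to act on the human and rat genes. CAAAACA was found in 6.28% of 32851 start windows of the same length and in no other window of the members. The capitals in Igfbp2 are an E-box, at -142 to -137 from the start, and 7.15% of all windows held this motif. The E-box was in 1 of the 17 member windows. The other Igfbp2 window, which is not shown, held none of the 5 motifs. The Igfbp5 window held none of the 5 motifs. Of the other members, Igfals held the STAT motif in 2 of its windows and the forkhead motif in 1, against 8.3% and 3.65% of all windows, and the D-box core was in no member window, against 6.0% of all windows. These matches describe letters and do not show that a factor binds.

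Igfbp1 rose, Igfbp5 and Ghr fell, and Igfbp2 and Igfbp7 rose by smaller amounts in the mutants. Igf1, Igf2, Igfals, Igfbp3 and Igfbp4 did not pass. Of the 10 genes 3 passed as higher and 2 as lower, and these 5 were also the genes whose groups did not overlap. Over all rows 15.5% passed in either direction, 6.52% as higher and 8.93% as lower, and the groups did not overlap in 24.6%. At an unadjusted p under 0.05 the counts were 6 of 10 members, with Igfbp3 as the sixth, and 30.3% of all rows. The median difference of the 10 genes was 0.04, against 0.08 over all rows. The members were chosen with results of these data known, so their share is a description.

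**Figure D1:**
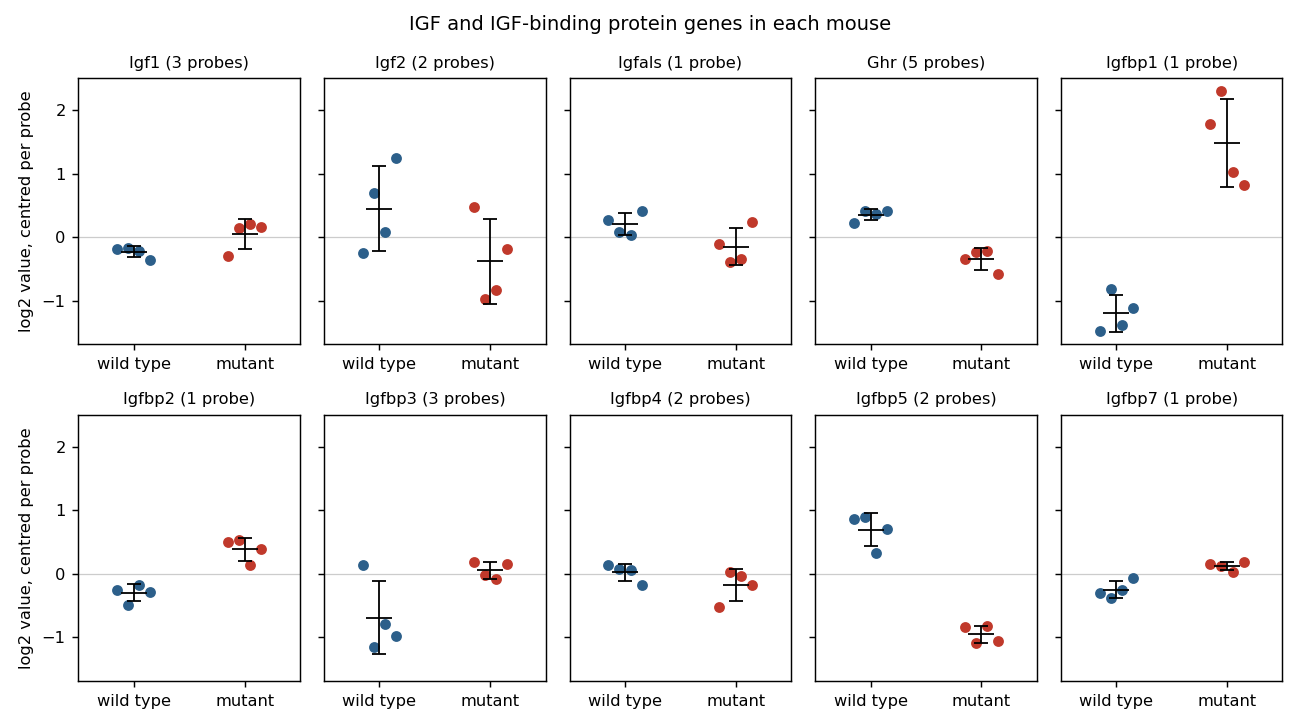
Log2 values, centred per probe and averaged over the probes of each gene, in 4 wild-type (blue) and 4 mutant (red) mice, with mean and SD in black. Groups are separate for Igfbp1, Igfbp2, Igfbp5, Igfbp7 and Ghr, and overlap for the other 5 genes.

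Among the binding proteins Igfbp1 changed most. Its single probe, A_51_P447545, read 1.79, 2.31, 1.03 and 0.82 in the mutant mice and -1.47, -0.82, -1.39 and -1.11 in the wild-type mice. Every mutant lay above every wild-type mouse, and the lowest mutant exceeded the highest wild-type mouse by 1.64, which is 3.11-fold. The mutant mean was 1.49 ± 0.69 (SD, n = 4) and the wild-type mean -1.20 ± 0.30 (SD, n = 4). The difference of 2.68 ± 0.34 (standard error) corresponds to a 6.43-fold rise (adjusted p = 0.00260), with a 95% interval of 1.90 to 3.47 on the log2 scale. It ranked 37 among the differences of 19532 named genes, ordered from the largest rise. The mutants were spread more widely than the wild-type mice, with replicates 1 and 2 above replicates 3 and 4. The call held in all 17 alternatives, where the difference ranged from 2.41 to 2.91.

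Other liver genes known to respond to insulin through the same forkhead and SREBP factors were listed beside Igfbp1. Of 5 measured, 2 rose and 1 fell. Pdk4, an inhibitor kinase of pyruvate dehydrogenase, differed by 2.21 ± 0.36 (adjusted p = 0.00674), and the glucose-6-phosphatase gene G6pc differed by 0.79 ± 0.19 (adjusted p = 0.0268). Srebf1, an insulin-induced regulator of lipid synthesis, fell by 1.88 ± 0.20 on the log2 scale (adjusted p = 0.00146). Sesn3 and Ppargc1a had differences of 0.07 and -0.08 and did not pass. G6pc no longer passed when mutant replicate 1, 2 or 3, or wild-type replicate 2 or 3, was left out, with differences of 0.75 to 0.81 and adjusted p of 0.0577 to 0.0684. The first 3 of these values were known when the list was written, so they are not independent support for Igfbp1.

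Igfbp5, the binding protein most known from connective tissue, muscle and bone, fell. Averaged over its 2 probes it read -0.84, -1.09, -0.82 and -1.06 in the mutant mice and 0.87, 0.89, 0.33 and 0.71 in the wild-type mice. The groups were apart by 1.15, and wild-type replicate 3 was the lowest of its group. The mean fell by 1.65 ± 0.15 on the log2 scale (3.14-fold, adjusted p = 0.000951), with a 95% interval of -2.01 to -1.29, and ranked 345 from the largest fall. Both probes passed alone, at -1.60 ± 0.32 (A_51_P204153, adjusted p = 0.0141) and -1.70 ± 0.31 (A_52_P281702, adjusted p = 0.0101). They ordered the mutants differently. Mutant replicate 1 was the highest mutant for the first probe, at -0.32, and the lowest for the second, at -1.36. The averaged call held in all 17 alternatives, from -1.78 to -1.53.

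Markers of squamous epithelium and smooth muscle were also lower on average in the mutants, while those of stellate cells and fibroblasts were higher on average. Of 8 squamous epithelium markers 6 fell, and their mean was -1.79 to -1.34 in mutant and 1.16 to 3.67 in wild-type mice. The mean of 6 smooth muscle markers was -0.31 to -0.09 in mutant and -0.003 to 0.42 in wild-type mice, and 1 of the 6, Actg2, fell. Of 9 stellate cell and fibroblast markers 4 rose and 1 fell, with means of -0.03 to 0.43 in mutant and -0.30 to 0.21 in wild-type mice. The 4 were Col3a1, Lum, Col1a1 and Col1a2, and the 1 was Lrat (-0.45 ± 0.11, adjusted p = 0.0313). Des, of the same list, differed by -1.79 ± 0.69 and did not pass (adjusted p = 0.128). The list thus held markers that moved both ways. Since the values carry no levels, it could not be said which of these markers are at 0. In bulk liver RNA fewer cells of a type and less RNA per cell cannot be told apart. Over the 8 arrays Igfbp5 had Pearson correlations of 0.92, 0.83 and -0.52 with the squamous, smooth muscle and stellate list means. With the genotype means removed these correlations were 0.13, 0.34 and -0.05. The correlation with the mean of 8 Kupffer cell markers, of which 7 rose, was -0.98, and -0.69 with the genotype means removed. For the endothelial, hepatocyte and cholangiocyte means it was -0.81, 0.41 and -0.20, and -0.08, -0.44 and -0.05 with them removed. The part of these tissues and cells in the Igfbp5 difference was not tested.

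Igfbp2, a hepatocyte product that lies next to Igfbp5 in the genome, rose. Its probe read 0.50, 0.53, 0.14 and 0.39 in the mutant mice and -0.25, -0.48, -0.17 and -0.28 in the wild-type mice. All mutants lay above all wild-type mice, with a gap of 0.31. The difference was 0.69 ± 0.13 (1.61-fold, adjusted p = 0.0111), with a 95% interval of 0.39 to 0.98. The call was kept in each fit without a single mouse and was lost without wild-type replicates 2 and 3 together (0.66, adjusted p = 0.0647). In RefSeq Igfbp2 and Igfbp5 face each other on opposite strands with 0 annotated genes between them, and they moved in opposite directions. Igfbp1 and Igfbp3 form the other such pair, also with 0 genes between them, and differed by 2.68 and 0.75, the second of which did not pass.

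Igfbp7, a related protein with low affinity for IGF that endothelial and mesenchymal cells secrete, changed least of the genes that passed. It read 0.16, 0.13, 0.04 and 0.19 in the mutant mice and -0.30, -0.38, -0.25 and -0.07 in the wild-type mice. The groups were separate by 0.10. The difference was 0.38 ± 0.11 (1.30-fold, adjusted p = 0.0475), close to the threshold. Leaving out any single mouse other than wild-type replicate 4 ended the call, with differences of 0.34 to 0.41 and adjusted p of 0.0713 to 0.112, and without wild-type replicates 2 and 3 together the difference was 0.32 (adjusted p = 0.218). Of 8 endothelial markers 1 rose, with list means of -0.05 to 0.47 in mutant and -0.34 to -0.16 in wild-type mice. Of the 9 stellate cell and fibroblast markers 4 rose and 1 fell, and of the 8 Kupffer cell markers 7 rose, with Kupffer cell means of 0.47 to 0.83 in mutant and -0.85 to -0.33 in wild-type mice. The part of these cells in the Igfbp7 difference was not tested.

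Igfbp3, the main carrier of IGF in blood, which in rodent liver is made by non-parenchymal cells, was split by a single wild-type mouse. Averaged over 3 probes it read 0.19, -0.02, -0.09 and 0.15 in the mutant mice and 0.15, -1.15, -0.78 and -0.97 in the wild-type mice. Wild-type replicate 1 lay among the mutants, and the other 3 wild-type mice lay below all mutants. The difference was 0.75 ± 0.27 (adjusted p = 0.111), with a 95% interval of 0.11 to 1.38, and did not pass. Without wild-type replicate 1, which stood apart on the whole array, it was 1.02 (adjusted p = 0.00636). Without wild-type replicates 2 and 3 it was 0.47 (adjusted p = 0.467).

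The 3 Igfbp3 probes differed in size. Probe A_51_P228472 read 0.05 in wild-type replicate 1 and -2.05, -1.63 and -2.15 in replicates 2 to 4, against -0.07 to 0.13 in the mutants. Its difference was 1.49 ± 0.46 (adjusted p = 0.0662), and 1.99 without wild-type replicate 1 (adjusted p = 0.00158). The other probes, A_52_P253179 and A_52_P851352, differed by 0.26 ± 0.24 and 0.49 ± 0.26 and did not pass in any of the 16 alternatives run on single probes. Without single mice A_52_P253179 ranged from 0.10 (without wild-type replicate 4) to 0.41 (without wild-type replicate 1), and A_52_P851352 from 0.31 (without wild-type replicate 2) to 0.68 (without wild-type replicate 1). Kupffer cell markers moved beside Igfbp3: 7 of 8 rose, and their mean was 0.47 to 0.83 in mutant and -0.85 to -0.33 in wild-type mice. In wild-type replicate 1, where Igfbp3 was highest of its group, the Kupffer cell mean was the lowest. Of 8 endothelial markers 1 rose, and their mean was -0.05 to 0.47 in mutant and -0.34 to -0.16 in wild-type mice. Wild-type replicate 1 had the highest endothelial mean of its group, at -0.16 against -0.17 in replicate 4. The part of these cells in the Igfbp3 values was not tested.

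**Figure D2:**
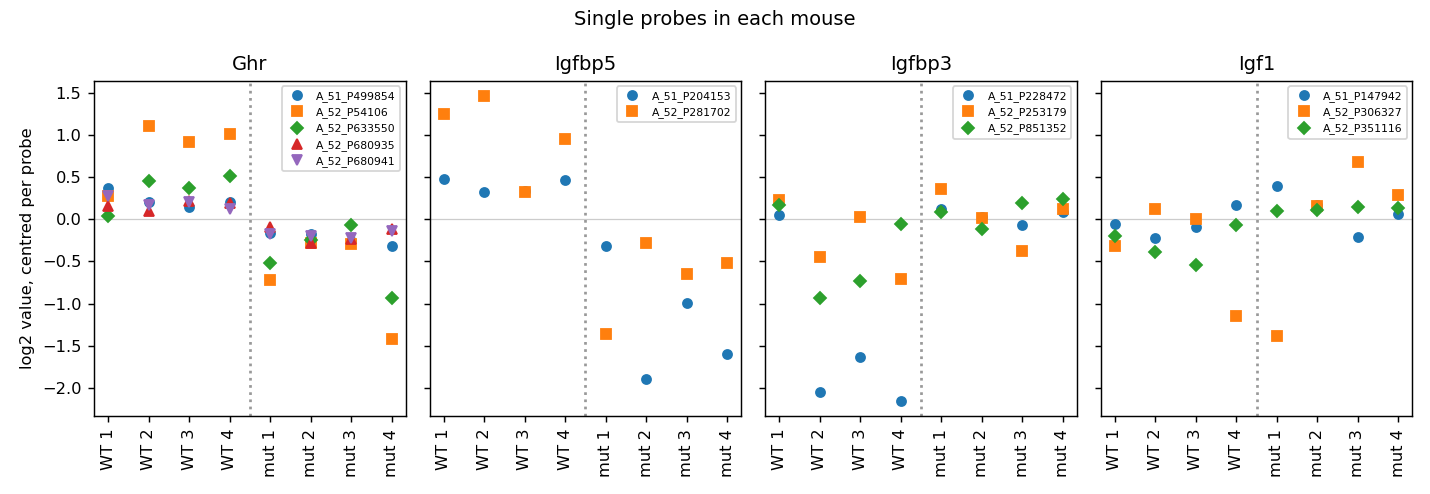
Log2 values, centred per probe, of each probe of Ghr, Igfbp5, Igfbp3 and Igf1 in the 4 wild-type (WT) and 4 mutant (mut) mice, 1 symbol per probe. The 5 Ghr probes and both Igfbp5 probes are lower in every mutant, while probe A_51_P228472 of Igfbp3 is near 0 in wild-type replicate 1 and at -2.15 to -1.63 in the other 3 wild-type mice.

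Igfbp4, a binding protein that mostly holds IGF back from its receptor, did not pass. Its values were -0.53, 0.03, -0.03 and -0.17 in the mutant mice and 0.13, 0.08, 0.07 and -0.18 in the wild-type mice. The groups overlapped, and mutant replicate 1 was the lowest mouse. The difference was -0.20 ± 0.15 (adjusted p = 0.347), with a 95% interval of -0.55 to 0.15. Its 2 probes gave -0.19 (A_51_P398971) and -0.21 (A_52_P257502). Without mutant replicate 1 the gene differed by -0.08 and the probes by -0.02 and -0.14.

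Ghr, the receptor through which growth hormone drives hepatic Igf1, fell. Averaged over 5 probes it read -0.33, -0.24, -0.21 and -0.58 in the mutant mice and 0.22, 0.41, 0.37 and 0.41 in the wild-type mice. The groups were apart by 0.44. The mean fell by 0.70 ± 0.12 on the log2 scale (1.62-fold, adjusted p = 0.00758), with a 95% interval of -0.97 to -0.42. The call was kept without any single mouse and was lost without wild-type replicates 2 and 3 together (-0.66, adjusted p = 0.0675).

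All 5 Ghr probes passed as lower, but by unequal amounts. The fall was 1.51 ± 0.30 for A_52_P54106 and 0.79 ± 0.21 for A_52_P633550, both annotated to cDNA clones, with adjusted p of 0.0137 and 0.0381. The 3 probes annotated to RefSeq transcripts fell by 0.35 ± 0.09 (A_52_P680935), 0.38 ± 0.09 (A_52_P680941) and 0.46 ± 0.10 (A_51_P499854), with adjusted p of 0.0393, 0.0233 and 0.0166. The clone probes varied most between mice. Mutant replicate 4 read -1.42 and -0.93 on them and -0.31 to -0.11 on the others. Leaving out single mice ended 3 of these calls. A_52_P680935 passed in 0 of the 8 limma fits without a mouse (adjusted p = 0.0516 to 0.104). A_52_P633550 passed in 2 of them, without mutant replicate 3 or wild-type replicate 1, with adjusted p up to 0.0975 in the others. A_52_P680941 passed in 3, without mutant replicate 1 or 4 or wild-type replicate 4, with adjusted p up to 0.0659 in the others. With the values as deposited only A_52_P54106 passed (adjusted p = 0.0190). The other Ghr probes had adjusted p of 0.0510 to 0.133 there. With A_52_P54106 taken for the gene, the difference was -1.51. Over all member probes 3 passed as higher and 7 as lower, against 6.36% and 9.92% of the 41174 probes. Their groups did not overlap for 11 of 21, against 25.1% of all probes. The 7 lower probes were the 5 of Ghr and the 2 of Igfbp5. Probes of the same gene measure it again in the same mice, so these are not counts of separate genes.

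**Figure D3:**
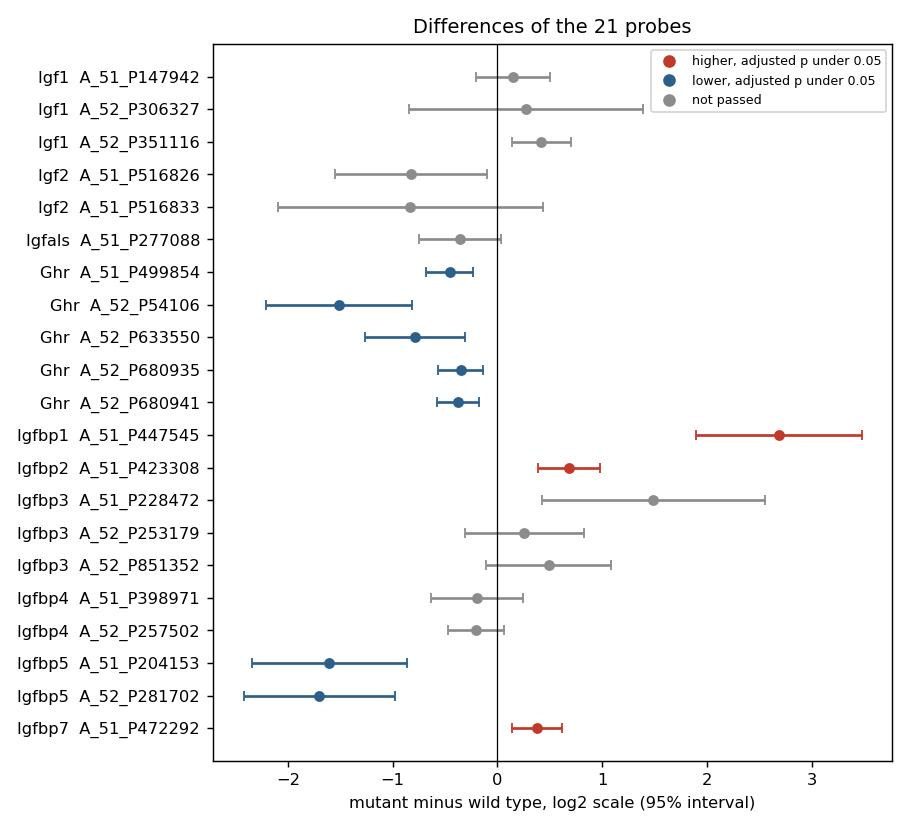
Mutant minus wild-type difference of each of the 21 probes on the log2 scale, with 95% intervals of the limma fit, in red where higher and blue where lower at an adjusted p under 0.05. Ghr probes range from -1.51 to -0.35, and the Igf1, Igf2, Igfals, Igfbp3 and Igfbp4 probes did not pass.

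Igf1, the growth hormone-driven ligand, did not pass, and its probes did not share a pattern. Averaged over 3 probes it read -0.30, 0.14, 0.21 and 0.16 in the mutant mice and -0.19, -0.16, -0.21 and -0.35 in the wild-type mice. Mutant replicates 2 to 4 lay above all wild-type mice and replicate 1 lay among them. The difference was 0.28 ± 0.14 (adjusted p = 0.196), with a 95% interval of -0.04 to 0.60. Without mutant replicate 1 it was 0.40 (adjusted p = 0.0504), the lowest adjusted p of the 17 alternatives. The low value of that mouse came from A_52_P306327, a cDNA clone probe, which read -1.38 there and -1.15 in wild-type replicate 4.

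The 2 Igf1 probes annotated to the RefSeq transcript also differed. A_52_P351116 read 0.10, 0.11, 0.14 and 0.13 in the mutant mice and -0.20, -0.39, -0.54 and -0.07 in the wild-type mice. Its groups did not overlap, and its difference of 0.42 ± 0.12 just missed the threshold (adjusted p = 0.0545). It passed in 3 of 16 alternatives, among them without wild-type replicate 4 (0.50, adjusted p = 0.0423). A_51_P147942 differed by 0.15 ± 0.15 with overlapping groups, and by 0.06 to 0.26 without single mice, the lowest without mutant replicate 1 and the highest without mutant replicate 3. The clone probe A_52_P306327 differed by 0.27 ± 0.48, and by 0.0004 without wild-type replicate 4 to 0.71 without mutant replicate 1. No Igf1 measurement was thus lower in the mutants on average, while the receptor gene Ghr fell in the same mice.

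Igf2, the imprinted fetal growth factor gene, which is low in adult mouse liver, varied widely between mice of a genotype. It read 0.48, -0.97, -0.84 and -0.19 in the mutant mice and -0.25, 0.71, 0.08 and 1.26 in the wild-type mice. The SD was 0.67 in each group, and mutant replicate 1 lay above 2 of the wild-type mice. The difference of -0.83 ± 0.42 did not pass (adjusted p = 0.204), with a 95% interval of -1.81 to 0.15. Its probes gave -0.83 ± 0.31 and -0.83 ± 0.55. H19, its imprinted neighbour with shared enhancers, differed by -1.57 ± 0.57 and did not pass either (adjusted p = 0.109). H19 was highest in wild-type replicates 2 and 4, the mice with the highest Igf2. The other mice did not keep this order. Mutant replicate 1, next highest in Igf2 at 0.48, read -0.84 for H19. Mutant replicate 4, next highest in H19 at 0.42, read -0.19 for Igf2.

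Igfals, the growth hormone-dependent subunit of the circulating complex, read -0.11, -0.39, -0.34 and 0.24 in the mutant mice and 0.28, 0.09, 0.04 and 0.41 in the wild-type mice. The groups overlapped through mutant replicate 4. The difference was -0.35 ± 0.17 (adjusted p = 0.194), with a 95% interval of -0.74 to 0.04. Hepatocyte markers stood beside it with means of -0.16 to 0.04 in mutant and -0.07 to 0.10 in wild-type mice, and 1 of 5, Ttr, fell.

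An exact two-sided permutation test over the mice gave p = 0.0286 for each of Igfbp1, Igfbp2, Igfbp5, Igfbp7 and Ghr, the smallest value that 4 against 4 mice allow. For the others it gave 0.0857 (Igfbp3), 0.114 (Igf1 and Igfals), 0.143 (Igf2) and 0.200 (Igfbp4). These are p-values of single genes without adjustment. Groups that do not overlap always give 0.0286 in this test, so for these 5 genes it repeats that their groups were separate. The groups were separate in 24.6% of all rows. No member changed direction in any of the 17 alternatives.

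**Figure D4:**
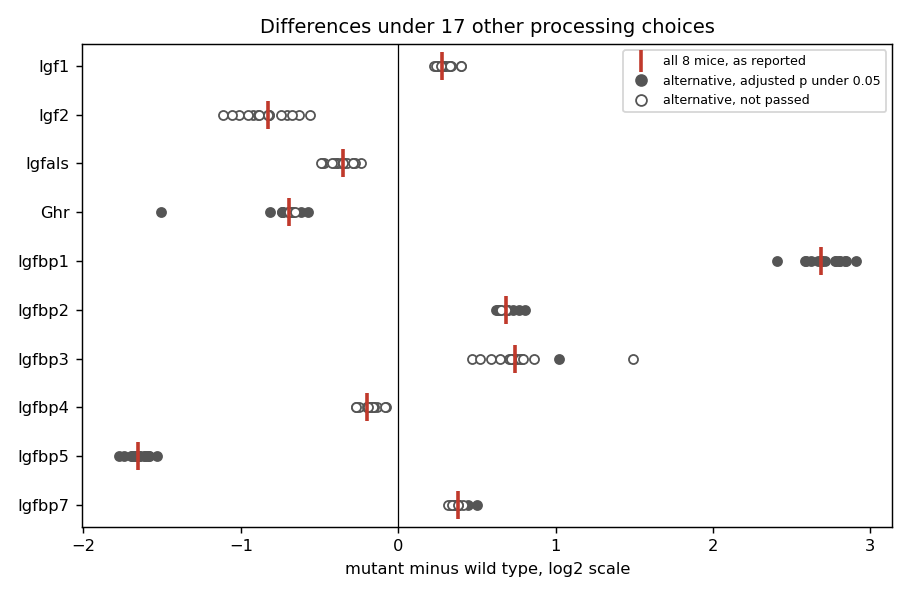
Mutant minus wild-type difference of each gene on the log2 scale with all mice (red bar) and under 17 other processing choices (circles, filled where the adjusted p was under 0.05). Igfbp1 and Igfbp5 passed in all 17, Ghr and Igfbp2 in 15, Igfbp7 in 2 and Igfbp3 in 1.

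Of 29 measured genes of receptors, growth hormone signalling, downstream signalling, further binding proteins, proteases and Igf2 mRNA-binding proteins, 2 rose and 2 fell, or 13.8%, against 15.5% of all rows. Their median difference was 0.12. The receptors Igf1r, Igf2r and Insr differed by 0.18 ± 0.14, -0.16 ± 0.15 and -0.37 ± 0.24, and none of these 3 passed. Insrr, a receptor related to the insulin receptor in sequence, rose by 1.14 ± 0.16 (adjusted p = 0.00391). It read 0.28 to 0.74 in mutant and -0.82 to -0.31 in wild-type mice.

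In the growth hormone signal only Socs1 passed among 7 measured genes. This inhibitor of JAK kinases, which interferons also induce, rose by 0.89 ± 0.11 (adjusted p = 0.00242). It read 0.27 to 0.50 in mutant and -0.62 to -0.30 in wild-type mice. Socs2, which growth hormone induces and which restrains the receptor, differed by 1.17 ± 0.36 and did not pass (adjusted p = 0.0695). Mutant replicate 1, at -0.18, overlapped with wild type, and the other mutants read 0.89 to 1.39. Cish, of the same list, differed the other way, by -0.76 ± 0.67, and did not pass (adjusted p = 0.426). It read -2.12 in mutant replicate 1. Stat5b, which carries the signal to the Igf1 gene, differed by 0.38 ± 0.15 (adjusted p = 0.143) and Jak2 by -0.17 ± 0.26 (adjusted p = 0.658).

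Downstream of the receptors Pik3r1 and Akt2 fell among 9 measured genes. Pik3r1 encodes a regulatory subunit of phosphoinositide 3-kinase, fell by 1.04 ± 0.18 on the log2 scale (2.06-fold, adjusted p = 0.00859), and passed for each of its 4 probes (-1.27 to -0.72). It read -0.89 to -0.24 in mutant and 0.20 to 0.68 in wild-type mice. Akt2, the AKT kinase gene most tied to insulin action in liver, fell by 0.42 ± 0.11 (adjusted p = 0.0367), but its call was lost without any single mouse (-0.46 to -0.36, adjusted p = 0.0526 to 0.0995). Irs1 differed by 0.48 ± 0.17, Foxo1 by 0.08 ± 0.09 and Akt1 by 0.02 ± 0.11, and none of them passed. The remaining binding proteins Igfbp6 and Igfbpl1, the binding protein proteases and their inhibitors (Pappa, Pappa2, Htra1, Stc1 and Stc2), and Igf2bp1 and Igf2bp3 did not pass either, with differences of -0.61 to 0.41.

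**Figure D5:**
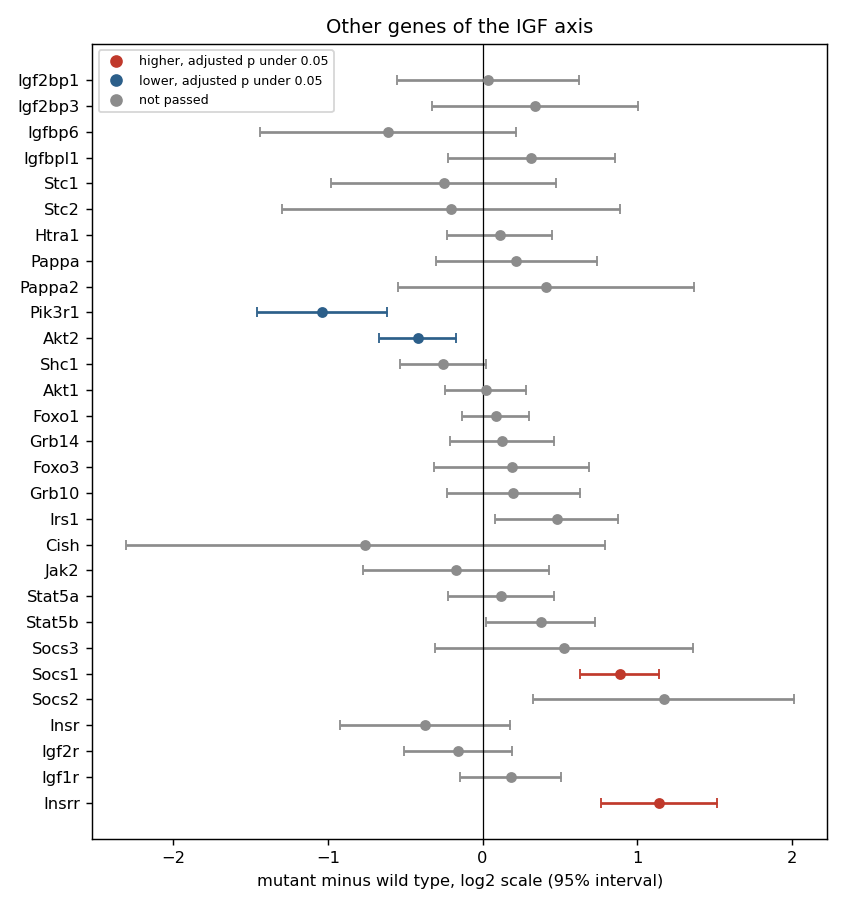
Mutant minus wild-type difference of 29 further genes of the IGF axis on the log2 scale, with 95% intervals, grouped by role. Insrr and Socs1 (red) rose and Pik3r1 and Akt2 (blue) fell, and the other 25 did not pass.

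The named genes whose values over the 8 arrays were most like those of Igfbp1 were Zswim3, Gem and Leng9, with Pearson correlations of 0.99, 0.99 and 0.99. All 3 rose in the mutants, by 0.91, 1.23 and 1.82 (adjusted p = 0.00440, 0.00233 and 0.00399). For Igf1 they were the macrophage gene Mpeg1, Ccpg1 and Me2, with correlations of 0.99, 0.97 and 0.97, and none of them passed (0.43, 0.23 and 0.34). These are the highest correlations among all named genes and are given as a description.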

How the data were processed

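Liver RNA of 8 mice was hybridised to 1-colour Agilent arrays with cyanine 3, per the labels' protocols. The deposited table was read as log2 values, normalised by the authors in a way not given in the sources used here, and every probe in it has a median of 0 over the arrays. Columns were grouped by the sample titles, with 0 columns unused. Control features (78) were set aside, arrays were shifted to a common 75th percentile, and probes with the same single symbol were averaged.

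The genotype difference came from limma 3.58.1 (R 4.3.3, lmFit with eBayes, two-sided, adjusted over all 28042 rows). The study's text names a p under 0.05 without a test. Single probes were fitted the same way over 41174 probes. The fit was tested on simulated data. Promoters came from RefSeq through the symbol, and figures were drawn with matplotlib 3.10.9.

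The members and lists were chosen with earlier results of these data known. All members were named, and of each further list up to 4 passing genes with the smallest p, with others named after their values were seen. Alternatives were other scalings, robust variance, array weights, a replicate block, leaving out mice, control features as a covariate and the most variable probe per gene. A p-value here sets a difference in means against the spread between these mice. In limma the spread of each row is drawn towards that of all rows.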

Additional observations from a re-analysis of the deposited data

Results flagged for a closer look

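In 2 of the 62 groups of 4 mice examined (each member and each probe in each genotype), a mouse lay far from the other 3, and about 3.1 would be expected by chance. Igf1 in mutant replicate 1 was -0.30, against 0.14 to 0.21 in the other mutants. Igfbp4 probe A_51_P398971 in wild-type replicate 4 was -0.23, against 0.05 to 0.11 in the other wild-type mice.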

How the results depend on the processing

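No member changed direction under any of 17 alternatives, and Igfbp1 and Igfbp5 passed in all of them. Replicate numbers were not taken to pair the mice: deviations of same-numbered mice correlated at 0.02, 0.08, -0.10 and 0.10. With the replicate number as a block, which uses up degrees of freedom, 1 member passed as higher and 1 as lower (all genes: 2030 rows against 4333), 1 member probe as higher and 3 as lower, and 0 of the pathway list as lower by limma (2 at an unadjusted p under 0.05). Ghr, Igfbp2 and Igfbp7 lost their calls there (adjusted p = 0.0508, 0.0712 and 0.123). Without wild-type replicates 2 and 3 together, 1 member passed as higher, 1 as lower, 1 member probe in each direction, 1 of the pathway list as lower, and 1766 rows in all. With the values as deposited, 3 member probes and 1 pathway gene passed as lower. With a common median or the control features as a covariate 1 pathway gene did. Against the values as deposited, the shift to a common percentile lowered every difference by the same amount. Ghr went from -0.58 as deposited to -0.70 after it, and Igfbp7 from 0.50 to 0.38. Beyond this, the cause of the changes in count was not tested. Leaving out 1 mouse at a time gave 4 to 5 member probes as lower and 1 pathway gene as lower. With the values as deposited the median difference of all rows was 0.20, against 0.08 here, and 61.4% of calls were higher, against 42.2%. Signal over background is not known for any probe.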

Other observations

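Of 8 measured growth hormone-responsive liver genes 1 rose (12.5%, against 15.5% of all rows called in either direction), which was the hydroxylase gene Cyp7b1 (1.10 ± 0.23, adjusted p = 0.0175). The male-biased Hsd3b5 differed by -0.87 ± 0.26 (adjusted p = 0.0589) and Elovl3, a fatty acid elongase gene, by 2.11 ± 0.64 (adjusted p = 0.0656), and neither passed. Leaving out mutant replicate 2 ended the call of Cyp7b1 (1.03, adjusted p = 0.0517), and it was kept in the other 7 fits without a single mouse.

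Of 8 imprinted or fetal growth genes 2 fell (25%, against the same 15.5%). Afp, the fetal albumin relative, fell by 0.68 ± 0.18 (adjusted p = 0.0414), and Cdkn1c, an imprinted cell cycle inhibitor, fell by 0.54 ± 0.15 (adjusted p = 0.0495). Afp kept its call only without mutant replicate 2, with adjusted p of 0.0625 to 0.104 and differences of -0.75 to -0.55 in the other 7 fits without a single mouse. Cdkn1c kept its call only without mutant replicate 4, with adjusted p of 0.0694 to 0.119 and differences of -0.58 to -0.47 in the other 7. The median difference was 0.15 in the growth hormone-responsive list and -0.16 in the imprinted list, against 0.08 over all rows. Of 5 cholangiocyte markers 1, Sox9, rose.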
